A study of Mus musculus with 6 samples.

Results

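The manchette is a skirt of microtubules that surrounds the nucleus of an elongating spermatid, shapes it and carries proteins to the growing tail, and the head-tail coupling apparatus then ties the flagellum to the nucleus. SUN proteins in the inner nuclear membrane bind KASH proteins in the outer one, and this bridge, the LINC complex, hands the pull of the cytoskeleton to the nucleus. Both structures act in elongating spermatids, where the paper places the end of transcription, so mRNAs used after it have to be made beforehand. The genes described here were Hook1, Rimbp3, Spag4, Sun3, Sun5, Spem1, Meig1, Cep131 and Iqcg, 9 genes chosen by name for their roles in these structures. Contigs were assigned to them by gene symbol, ignoring case, which gave 18 transcripts of 8 genes among the 11517 annotated transcripts of the series, with 11665 reads. Cep131, a centriolar satellite protein, had no tail or count analysed here.

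The study compared pachytene and diplotene (P/D) spermatocytes with round spermatids (RS), both sorted by flow cytometry on Hoechst and propidium iodide staining from testes of adult, untreated wild-type males labelled C57BL/6J/B6. Each cell type had 3 samples, and each sample was a pool of mRNA from 3 mice. Native RNA was read through nanopores, so that each read gives the tail length, in nucleotides (nt), of 1 mRNA molecule. The samples held between 244004 and 474688 reads. All P/D extracts shared 1 barcoded library and all RS extracts a second one, and a library effect and a cell type effect cannot be told apart in any comparison below. In such bulk samples, fewer cells that carry an mRNA and less of that mRNA per cell cannot be told apart either.

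The sort enriches cell types and does not purify them. By the paper's microscopy the P/D gate was less pure than the RS gate, and other cells made up a large part of it. Values given for P/D below are those of these sorted samples. A list of 10 P/D spermatocyte markers made up between 0.236% and 0.257% of the P/D reads and between 0.0469% and 0.0621% of the RS reads. A list of 10 RS markers made up between 0.0733% and 0.0990% of the P/D reads and between 0.306% and 0.313% of the RS reads, so its level in P/D was 28.9% of that in RS. This level leaned on Spata16 and Acr, which were well read in P/D. The leading Spata16 transcript had 120, 145 and 94 P/D reads and 118, 171 and 114 RS reads. Acr had 56, 60 and 61 P/D reads and 85, 107 and 109 RS reads. The other RS markers were mostly read in RS, as Acrv1 was, with 6, 12 and 4 P/D reads and 153, 205 and 160 RS reads. A list of 8 elongating spermatid markers, which includes the protamines, made up between 0.174% and 0.236% of the P/D reads and between 2.25% and 2.76% of the RS reads, and its level in P/D was 7.99% of that in RS. Neither spermatogonial nor macrophage markers had a read. Leydig cell markers had between 1 and 7 reads in a sample and Sertoli cell markers at most 1.

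The poly(A) tail is added where the pre-mRNA is cut, downstream of a hexamer, most often AATAAA or ATTAAA. The 3′ ends of the leading transcripts, those with the most reads of a gene, are shown for 7 genes because the tail lengths below were measured on these mRNAs. They are annotated ends, in the DNA letters of the transcript strand from 5′ to 3′, from GENCODE vM21 on GRCm38, with the hexamer nearest the end in capitals. The ends of the reads themselves were not analysed here.
Meig1-203, chr2:3409047-3409076, minus strand: tacacaacataaacacccaccttgaaacct
Rimbp3-201, chr16:17213953-17213982, plus strand: ccctcATTAAAatgttcatagaaaaagaat
Iqcg-202, chr16:33012683-33012712, minus strand: aaaaaaactgtgtcttcATTAAAaacgaaa
Hook1-201, chr4:96025384-96025413, plus strand: tacgcaAATAAAgttctgcttctgattcag
Sun3-201, chr11:9016054-9016083, minus strand: tttactAATAAAaaaaatgaaagtcaatcc
Sun5-201, chr2:153856188-153856217, minus strand: tcctagagtaaagtatattattcagtccaa
Spag4-201, chr2:156069472-156069501, plus strand: ccATTAAAaatgccgatggttggagtagaa
AATAAA stood in the last 40 bases of the leading transcripts of Hook1 and Sun3, and ATTAAA, searched where AATAAA was absent, in those of Rimbp3, Iqcg and Spag4. Neither was found in Meig1-203 or Sun5-201, and none of the 5 Meig1 transcripts held one. Of 11344 transcripts of the series with a sequence, 59.3% held AATAAA, a further 14.4% held ATTAAA and 26.3% held neither. Of the transcripts with longer tails in RS, Rimbp3-201 and Iqcg-202 held ATTAAA and Sun3-201 held AATAAA. Meig1-203, Meig1-204, Meig1-201 and Meig1-205, also longer in RS, held neither.

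The 8 genes fell into those read about as often in P/D spermatocytes as in RS, or more often, and those that were mostly read in RS. Meig1, Rimbp3 and Iqcg belonged to the former. Spem1, Spag4, Sun5, Sun3 and Hook1 belonged to the latter. Summed over its transcripts and taken per read of the library, the level in P/D as a percentage of that in RS was 174% for Iqcg, 107% for Meig1 and 93.8% for Rimbp3, against 32.2% for Hook1, 28.0% for Sun3, 11.4% for Sun5, 11.3% for Spem1 and 10.3% for Spag4. The percentages of Sun3, Sun5, Spem1 and Spag4 lay between those of the elongating spermatid markers and the RS markers given above. The RS marker percentage leaned on Spata16 and Acr, which were well read in P/D, so this range does not describe the other RS markers. The part that spermatid mRNA in the P/D gate had in their P/D reads was not tested.

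**Figure D1:**
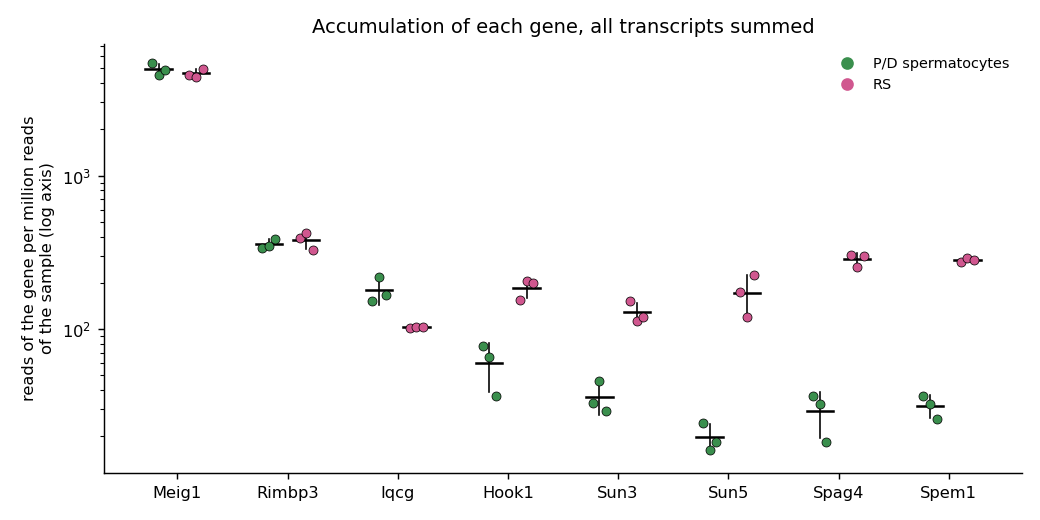
Reads of each gene in RPM, its reads scaled to a common library total, all transcripts summed, on a log axis. Points are the 3 P/D samples (green) and the 3 RS samples (pink), horizontal lines are means and vertical lines are SDs. Samples of the 2 cell types overlap for Meig1 and Rimbp3, P/D lies above RS for Iqcg, and RS lies above P/D for the other genes.

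Accumulation was tested on the deposited counts and is given in CPM, counts scaled to a common library size. Of the 18 transcripts, 11 passed the filter on counts, and edgeR's quasi-likelihood test called 6 of these higher in RS and 1 lower, at an adjusted p below 0.05. Over all 6005 transcripts tested, 32.6% were called higher and 30.8% lower. Of the 12 transcripts that passed the filter on reads for tail length, limma called 7 longer in RS and 1 shorter, against 54.2% longer and 1.69% shorter over all 6990 transcripts tested. Every RS sample had a longer mean tail than every P/D sample for 63.6% of the 6464 tested transcripts that were read in each of the 6 samples, and a higher CPM for 33.9% of those tested for accumulation. The median difference in mean tail, RS minus P/D, was 40.1 nt over these 12 and 37.4 nt over all. Several of the 7 longer transcripts were those of Meig1. Counted by gene, 4 of 8 member genes were longer, beside 2965 of all 5407 genes tested. The members' counts for longer tails were thus close to the background share, and the differences among members are what the following paragraphs describe.

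Meig1 encodes a small protein that is needed to bring cargo along the manchette. It supplied between 74.4% and 88.5% of the reads of the group in a sample. Its leading transcript, Meig1-203 (chr2:3409047-3419129, minus strand, 3 exons), was read 1099, 1171 and 1135 times in P/D and 1154, 1696 and 1421 times in RS. Its accumulation, 4510 ± 401 CPM (SD, n = 3) in P/D and 4161 ± 326 CPM in RS, did not pass the test (log2 fold change -0.12, SE 0.09, edgeR adjusted p = 0.252). Its mean tail was 99.7, 105 and 100.3 nt in P/D and 169, 166 and 168 nt in RS. The cell types were far apart and replicates within each differed by only a few nt. The difference in mean tail was 66.1 nt (SE 5.27, limma adjusted p = 0.00049).

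Read by read, Meig1 was mostly short-tailed and widely spread in P/D, and long-tailed and narrowly spread in RS. Tails of 30 to 120 nt made up 67.3% ± 2.52 (SD, n = 3) of its reads in P/D and 6.12% ± 0.66 in RS. Tails of 120 to 210 nt made up 28.6% ± 1.88 and 85.0% ± 1.56 of the reads, with every RS sample above every P/D sample. The median read was 90.7 nt in P/D and 167 nt in RS, and the 10th percentile was 45.9 and 131 nt. Few short-tailed Meig1 molecules were read in RS while the level of the gene per library read was nearly the same.

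Meig1 transcripts differ at their 5′ ends. Meig1-201 starts in an exon of its own (chr2:3422391-3422648, 258 bases) upstream of the start of Meig1-203, and the promoters of both starts are shown because only the upstream transcript rose in RS. They are the 250 bases before each start in RefSeq (GRCm38.p6), 5′ to 3′ on the gene's strand. The cyclic AMP response element TGACGTCA, its first letters TGACG and GTTGCNA, part of the X-box, were searched on both strands, and neither promoter held any of them, so no letter is in capitals.
Meig1 upstream start (Meig1-201), chr2:3422649-3422898, minus strand: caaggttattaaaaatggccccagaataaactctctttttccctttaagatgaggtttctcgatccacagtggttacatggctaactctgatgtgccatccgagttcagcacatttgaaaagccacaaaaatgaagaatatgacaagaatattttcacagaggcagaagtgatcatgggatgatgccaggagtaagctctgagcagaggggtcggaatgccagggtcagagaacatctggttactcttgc
Meig1 downstream start (Meig1-203), chr2:3419130-3419379, minus strand: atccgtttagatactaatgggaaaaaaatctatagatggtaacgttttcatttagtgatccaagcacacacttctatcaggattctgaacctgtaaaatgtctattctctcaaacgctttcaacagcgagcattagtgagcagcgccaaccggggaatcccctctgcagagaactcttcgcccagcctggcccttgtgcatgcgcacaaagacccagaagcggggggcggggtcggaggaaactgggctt
Meig1-201 had 20, 20 and 18 reads in P/D and 74, 119 and 106 in RS. All RS samples were above all P/D samples, and accumulation rose from 76.9 ± 9.82 to 291 ± 43.1 CPM (log2 fold change 1.92, SE 0.21, edgeR adjusted p = 1.91e-10). As a share of Meig1 reads it went from 1.44% ± 0.09 (SD, n = 3) to 5.62% ± 0.43, and the groups did not overlap (two-sided exact permutation p = 0.1, the smallest that 3 against 3 allows). Meig1-204 and Meig1-205 did not pass the test on accumulation, with log2 fold changes of -0.12 (SE 0.13) and 0.10 (SE 0.24).

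In the P/D samples Meig1-201 had the longest mean tail of the gene's 4 tested transcripts. It was 143, 121 and 138 nt in P/D and 165, 168 and 162 nt in RS, a difference of 31.5 nt (SE 7.43, limma adjusted p = 0.0123). Against Meig1-203 in the same sample it was longer by 43.1, 16.2 and 37.2 nt in P/D, and differed by -3.53, 2.15 and -5.95 nt in RS. All 3 P/D values of this difference lay above all 3 RS values (two-sided exact permutation p = 0.1, the smallest possible). Meig1-204 and Meig1-205 resembled Meig1-203, with mean tails of 87.6 ± 2.34 and 99.97 ± 8.23 nt in P/D and 166 ± 1.52 and 167 ± 0.63 nt in RS, and both were called longer (differences of 78.5 and 67.5 nt, limma adjusted p = 0.00049 and 0.000513). In RS the 4 tested transcripts of the gene had mean tails within a few nt of each other. Meig1-202 had 32 reads in all and was not tested.

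**Figure D2:**
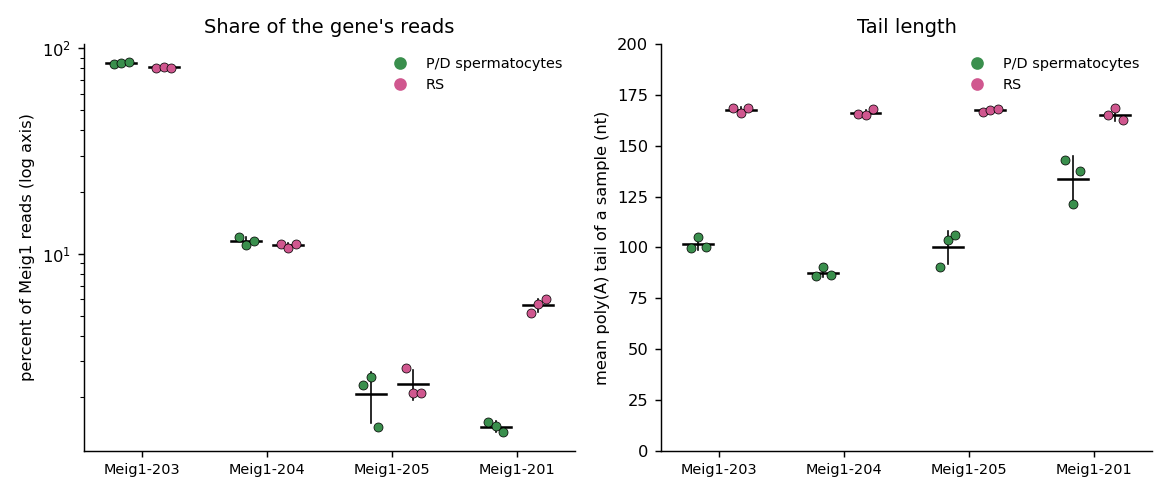
Share of Meig1 reads, in percent on a log axis (left), and mean tail of a sample, in nt (right), for 4 Meig1 transcripts. Points are the 3 samples of each cell type (P/D green, RS pink), with means and SDs as lines. Meig1-201 has a larger share in RS and the longest P/D tail of the 4, while all lie between 162 and 169 nt in RS.

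Rimbp3 encodes a manchette protein that binds HOOK1. Rimbp3-201 (chr16:17208603-17213982, plus strand, 1 exon) was read 82, 107 and 105 times in P/D and 124, 201 and 117 times in RS, or 387 ± 36.2 and 424 ± 48.7 CPM. The groups overlapped and accumulation did not pass the test (log2 fold change 0.14, SE 0.14, edgeR adjusted p = 0.407). Its mean tail was 98.8, 94.1 and 82.3 nt in P/D and 164, 165 and 169 nt in RS. All RS values exceeded all P/D values, by 74.2 nt on average (SE 6.56, limma adjusted p = 0.00049). The share of Rimbp3 reads at 120 to 210 nt was 23.8% ± 5.83 in P/D and 82.5% ± 1.64 in RS, values near those of Meig1.

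Iqcg encodes a calmodulin-binding subunit of the nexin-dynein regulatory complex of the axoneme and is needed for the manchette and the tail. Iqcg-202 (chr16:33012683-33056190, minus strand, 11 exons) was read 35, 62 and 42 times in P/D and 27, 45 and 36 times in RS. It was the only member transcript called lower in RS, from 180 ± 31.4 to 104 ± 11.01 CPM with no overlap (log2 fold change -0.79, SE 0.21, edgeR adjusted p = 0.00131). Its mean tail was 92.1, 87.6 and 94.7 nt in P/D and 164, 161 and 166 nt in RS. Tails were thus longer in every RS sample, by 72.3 nt (SE 5.47, limma adjusted p = 0.00049), while accumulation was lower. Short tails of 30 to 120 nt made up 72.2% ± 4.87 of Iqcg reads in P/D and 19.96% ± 5.73 in RS, beside 8.47% ± 2.29 of Rimbp3 reads in RS. The promoter of Iqcg held GTTGCNA, part of the X-box of RFX factors, found in 8.77% of 32851 RefSeq promoters. Iqcg-205, annotated as a processed transcript with 20 reads, was not tested.

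Hook1 encodes a dynein adaptor that links cargo to microtubules and is mutated in mice with abnormal spermatozoon head shape. Hook1-201 (chr4:95967240-96025413, plus strand, 22 exons) was read 15, 14 and 8 times in P/D and 43, 77 and 58 times in RS. All RS samples were above all P/D samples, and accumulation rose from 49.1 ± 16.7 to 171 ± 20.2 CPM (log2 fold change 1.81, SE 0.26, edgeR adjusted p = 9.24e-08). Its mean tail was 192, 206 and 217 nt in P/D and 172, 161 and 172 nt in RS. Hook1-201 was the only member transcript with shorter tails in RS, with every RS sample below every P/D sample, a pattern shown by 2.72% of the 6464 transcripts read in every sample. The difference was -36.6 nt (SE 8.25, limma adjusted p = 0.0103). The call rested on few very long P/D tails, since 6 of the 37 P/D reads had tails above 300 nt against 4 of the 178 RS reads. With tails of 10 to 300 nt only, the difference was -13.9 nt (limma adjusted p = 0.461), and with the median in place of the mean it was -19.7 nt (limma adjusted p = 0.312). Long Hook1 tails were also read in the P/D samples, where 13.5% of the pooled Hook1-201 reads had tails of 30 to 120 nt against 66.8% of the Meig1-203 reads.

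Spem1 encodes a spermatid protein needed to strip cytoplasm from the head and neck. Spem1-201 (chr11:69820876-69822180, minus strand, 3 exons) was read 9, 10 and 7 times in P/D and 87, 138 and 100 times in RS. The samples of the cell types did not overlap, and accumulation rose from 34.3 ± 5.55 to 314 ± 12.6 CPM (log2 fold change 3.19, SE 0.24, edgeR adjusted p = 5.74e-15). Its mean tail was 165, 150.3 and 161 nt in P/D and 161, 159.8 and 164 nt in RS. These ranges overlapped, and the difference of 2.65 nt (SE 6.23, limma adjusted p = 0.742) did not pass the test.

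Sun3, Spag4 (which encodes SUN4) and Sun5 encode SUN proteins of the testis. SUN3 and SUN4 sit in the part of the nuclear envelope that the manchette grips, and SUN5 sits where the tail implants in the head. Sun5-201 (chr2:153856188-153871084, minus strand, 12 exons) was read 6, 5 and 5 times in P/D and 55, 57 and 80 times in RS. Spag4-201 (chr2:156065244-156069501, plus strand, 12 exons) was read 8, 8 and 5 times in P/D and 86, 97 and 80 times in RS. Sun3-201 (chr11:9016054-9039589, minus strand, 10 exons) was read 7, 13 and 7 times in P/D and 38, 41 and 33 times in RS. All 3 genes were higher in every RS sample than in any P/D sample. Accumulation rose by a log2 fold change of 3.14 for Sun5-201 (SE 0.33, edgeR adjusted p = 5.04e-11), 3.20 for Spag4-201 (SE 0.27, edgeR adjusted p = 1.52e-13) and 1.61 for Sun3-201 (SE 0.30, edgeR adjusted p = 1.28e-05). Thus Spag4, Sun5 and Spem1 rose by nearly the same factor, between 8.83-fold and 9.20-fold, and Sun3 and Hook1 by 3.06-fold and 3.51-fold.

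Tails of the SUN genes were long among the reads of both groups of samples, and which cells their few P/D reads came from was not tested. The mean tail of Spag4-201 was 171, 224 and 131 nt in P/D and 188, 184 and 197 nt in RS. That of Sun5-201 was 215, 161 and 178 nt in P/D and 186, 188 and 196 nt in RS. With 5 to 8 reads behind each P/D mean, the P/D samples spread around the RS samples, and neither difference passed the test (14.7 nt, SE 22.7, limma adjusted p = 0.613 for Spag4-201, and 5.45 nt, SE 14.0, limma adjusted p = 0.764 for Sun5-201). The mean tail of Sun3-201 was 174, 149 and 143 nt in P/D and 179.6, 185 and 196 nt in RS. All RS values exceeded all P/D values, by 31.4 nt on average (SE 10.1, limma adjusted p = 0.0377), but the call was lost when replicate numbers entered as a block (limma adjusted p = 0.0878) and without any single sample except P/D replicate 1 (limma adjusted p from 0.0597 to 0.107). The call was also lost with medians (limma adjusted p = 0.105), on the log2 scale (limma adjusted p = 0.0539) and by an equal-variance test (adjusted p = 0.0796). With the reads of both Sun3 transcripts pooled, the difference was 34.7 nt (SE 6.26, limma adjusted p = 0.00396). Pooling added 1 Sun3-202 read to each P/D sample. In P/D replicate 1 this read had 53.2 nt, beside the Sun3-201 mean of 174 nt, so the pooled call leaned on few reads.

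In RS, the leading transcripts of the SUN genes had the longest mean tails of the group. Over the 3 RS samples the leading transcripts of Sun3, Sun5 and Spag4 had mean tails between 179.6 and 197 nt, and those of Meig1, Rimbp3, Iqcg, Hook1 and Spem1 between 159.8 and 172 nt, with no overlap. Their RS means stood at percentiles 94.8 (Sun3-201) and 96.2 (Sun5-201 and Spag4-201) of all transcripts tested, while Spem1-201 stood at 53.7. Tails of 210 nt or more made up 30.6% ± 5.13 of the RS reads of Sun5, 24.4% ± 5.75 of those of Sun3 and 20.7% ± 1.69 of those of Spag4, beside 17.9% ± 4.20 for Iqcg, 15.3% ± 1.13 for Hook1, 9.03% ± 1.16 for Rimbp3, 8.75% ± 0.85 for Meig1 and 8.43% ± 1.42 for Spem1. In this share the samples of Iqcg overlapped those of Spag4 and Sun3, so the SUN genes did not stand apart from all other members. Sun5 had 13.3% ± 1.77 of its RS reads at 30 to 120 nt and none of its 16 P/D reads, and its share at 120 to 210 nt was 88.9% ± 19.2 in P/D and 56.2% ± 3.58 in RS. This grouping was chosen after the values were seen and was not tested.

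**Figure D3:**
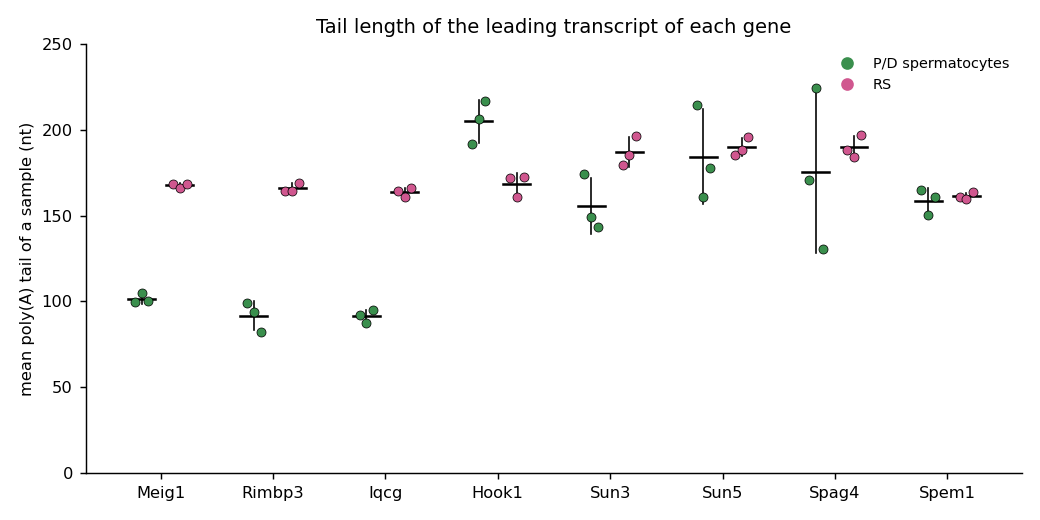
Mean poly(A) tail, in nt, of the leading transcript of each gene in each sample. Points are the 3 P/D samples (green) and the 3 RS samples (pink), horizontal lines are means and vertical lines are SDs. Meig1, Rimbp3 and Iqcg lie between 82.3 and 105 nt in P/D and between 161 and 169 nt in RS, while the lowest P/D value of the other genes is 131 nt.

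The promoter of Spag4 is shown because it was the only RefSeq promoter matched to the genes analysed here that held the full cyclic AMP response element, the site of CREM, a factor that switches on many spermatid genes. Capitals mark TGACGTCA, which starts 37 bases before the RefSeq start, and a separate TGACG. The shorter motif also lies within the longer one.
Spag4 promoter, chr2:156064963-156065212, plus strand: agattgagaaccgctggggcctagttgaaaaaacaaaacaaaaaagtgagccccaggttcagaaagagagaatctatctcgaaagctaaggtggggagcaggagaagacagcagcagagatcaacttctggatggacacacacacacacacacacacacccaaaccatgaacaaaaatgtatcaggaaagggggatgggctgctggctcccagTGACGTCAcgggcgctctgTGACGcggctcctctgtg
Of 32851 promoters of this length, 1.55% held TGACGTCA and 17.8% held TGACG, on either strand. The promoters of Sun5, Sun3, Spem1 and Hook1, the other genes that rose in RS, held neither, and a match or its lack describes only these letters in this window. Rimbp3 had no promoter entry.

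Other transcripts of these genes were thinly read. Sun3-202 starts upstream in an exon of its own (chr11:9048869-9048991, 123 bases) and had 1 read in each P/D sample and 10, 13 and 10 in the RS samples. Its share of Sun3 reads was 10.7% ± 3.09 in P/D and 22.7% ± 1.69 in RS without overlap (two-sided exact permutation p = 0.1, the smallest possible), and its tail difference of 48.8 nt (SE 36.8, limma adjusted p = 0.306) rested on those 3 P/D reads. It was 5.58 nt without P/D replicate 1 and 77.3 nt without P/D replicate 2. Hook1-211 and Hook1-207, annotated as processed transcripts, had 28 and 23 reads, and Spag4-204 and Spag4-202, annotated as retaining an intron, had 34 and 28. None of these 4 was tested.

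Set side by side, accumulation and tails split the members in the same way. The 5 transcripts with no rise in accumulation, Meig1-203, Meig1-204, Meig1-205, Rimbp3-201 and Iqcg-202, had P/D tails between 87.6 and 102 nt and gained between 66.1 and 78.5 nt. Those of Meig1 come from the same gene and share most of their bases, so they are not separate instances. The 6 transcripts that rose in RS, Meig1-201 among them, had P/D tails between 134 and 205 nt, and their differences ran from -36.6 to 31.5 nt. Over the whole series, 36.5% of the 1899 transcripts called higher in RS had longer tails, with a median P/D tail of 135 nt, and of these the 1036 that rose at least 4-fold had 13.2% longer and a median of 155 nt. Among the 2184 transcripts whose accumulation did not pass the test 71.1% were longer, with a median P/D tail of 110 nt, and among the 1833 called lower 63.5% were longer, with a median of 104 nt. The filter on reads could be met in RS alone, so P/D means of transcripts that rose can rest on few reads. How far this lowered their share of longer tails was not tested. Which cells the P/D reads of the mRNAs that rose came from was not tested either.

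**Figure D4:**
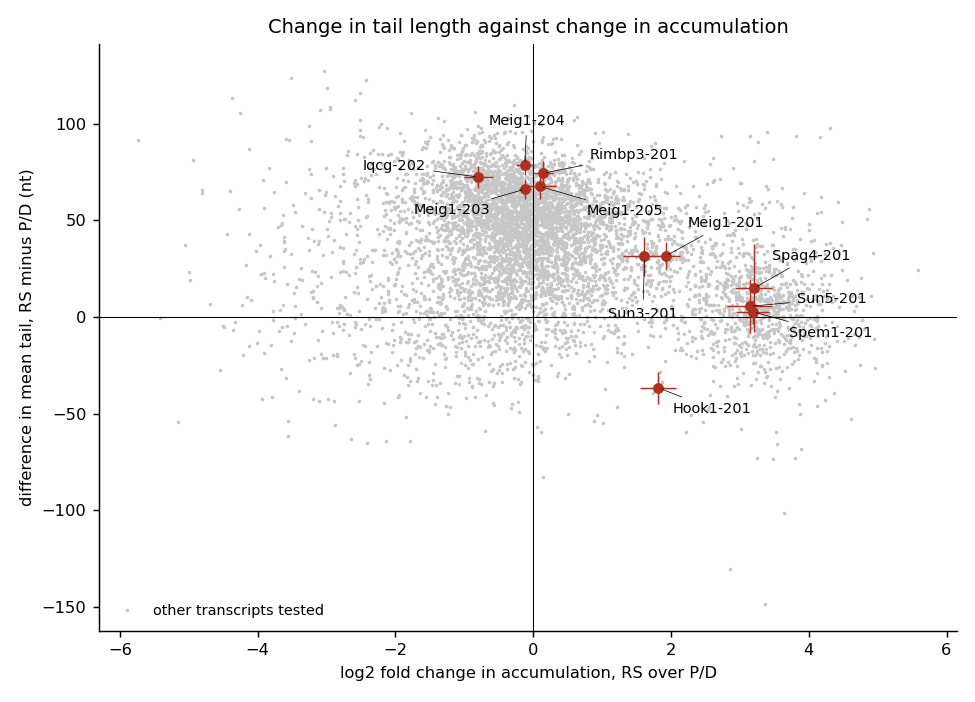
Log2 fold change in accumulation, RS over P/D (x axis), against the difference in mean tail, RS minus P/D, in nt (y axis). Grey points are the other transcripts tested in both fits, red points are the 11 member transcripts and bars are SEs. The 5 member transcripts with fold changes from -0.79 to 0.14 have tails 66.1 to 78.5 nt longer in RS, and the members with the highest fold changes lie near no change in tail.

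The read-level distributions show what the means cannot. For Meig1, Rimbp3 and Iqcg the P/D curve lies to the left of the RS curve over nearly its whole range, and 67.3% ± 2.52, 70.1% ± 5.42 and 72.2% ± 4.87 of P/D reads fell between 30 and 120 nt. For Spag4 and Spem1 the pooled medians were close, at 184 and 183 nt for Spag4 and 155 and 159 nt for Spem1 in P/D and RS. Their P/D curves rest on 24 and 26 reads, and the rest of the curves differed more. Tails of 210 nt or more made up 33.3% of the pooled Spag4 reads in P/D and 20.8% in RS. Tails of 30 to 120 nt made up 19.2% of the pooled Spem1 reads in P/D and 9.23% in RS. For Sun3 the shift was smaller, from a pooled median of 159 nt to 179 nt. Over all member reads, tails of 120 to 210 nt made up 28.0%, 30.9% and 27.8% of the P/D samples and 83.9%, 81.7% and 81.4% of the RS samples (two-sided exact permutation p = 0.1, the smallest possible). The difference of 53.4 percentage points was 43.3 without Meig1 and 23.4 with each gene given equal weight, beside 37.9 over all reads of the series.

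**Figure D5:**
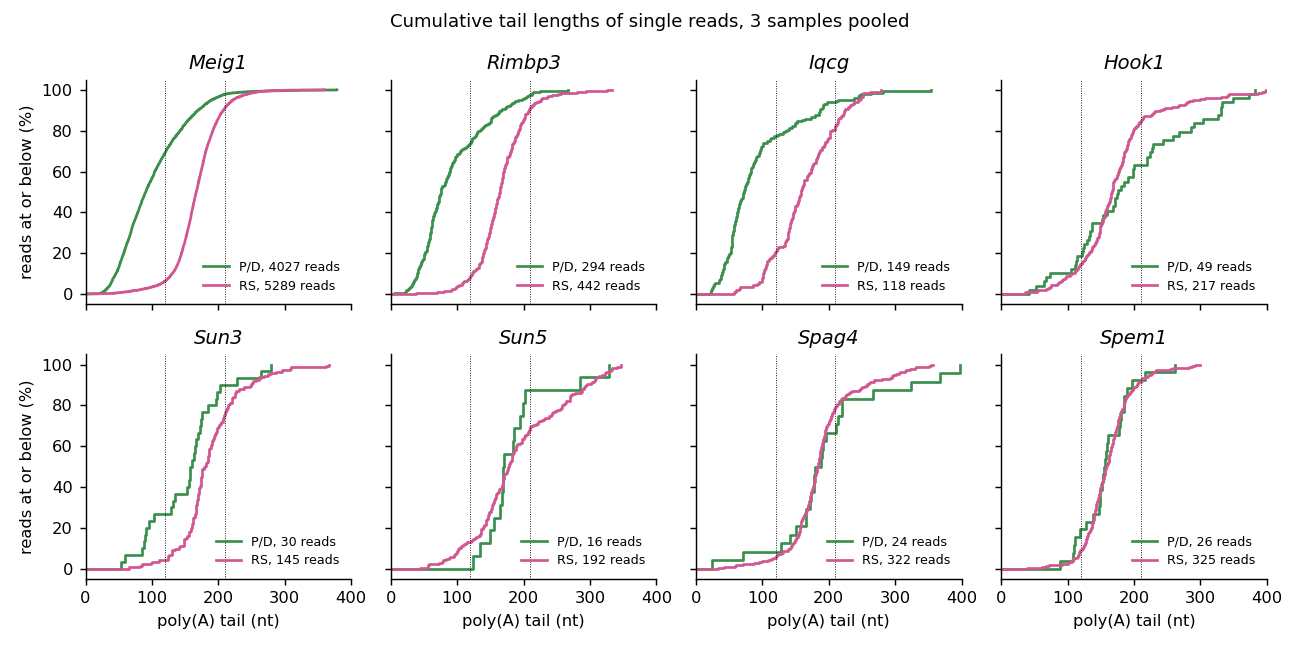
Cumulative share of reads, in percent, at or below each tail length, in nt, for the 8 genes with the 3 samples of a cell type pooled (P/D green, RS pink; reads in each legend). Dotted lines mark 120 and 210 nt. The curves are far apart for Meig1, Rimbp3 and Iqcg. Those of Spag4 and Spem1 have close medians, and their P/D curves rest on 24 and 26 reads.

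Genes that work with the members were counted from lists, with the transcript of most reads taken for each gene. Of 23 genes of the manchette and intramanchette transport, 16 were tested for accumulation, of which 3 were higher and 5 lower in RS, and 18 for tails, of which 15 were longer and 0 shorter by limma at the adjusted threshold. Over all transcripts tested 32.6% were higher, 30.8% lower and 54.2% longer. The median tail difference was 57.0 nt in the list and 37.4 nt over all. For this list and those below, no background of like read depth was drawn. Among all transcripts with at least 20 reads in 2 samples of both cell types, 1882 of 2235 were longer. Rnf19a, a ubiquitin ligase of the spermatid, rose by a log2 fold change of 0.73 (SE 0.16, edgeR adjusted p = 0.000123). Ift20 and Ift140, which encode subunits of intraflagellar transport, were lower, with log2 fold changes of -1.94 (SE 0.22) and -1.02 (SE 0.19). The largest tail increases of the list were those of Ift88, 87.7 nt (SE 15.4, limma adjusted p = 0.0038), and Ccdc181, 75.1 nt (SE 5.66, limma adjusted p = 0.00049). The median log2 fold change of the 16 was -0.23, against -0.03 over all transcripts.

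Of 18 other genes of head-tail coupling, 14 were tested, of which 9 were higher and 1 lower in RS, and 8 had longer tails and 0 shorter. Over all transcripts tested 32.6% were higher, 30.8% lower and 54.2% longer, so the count of longer tails was near the background share. Odf1, an outer dense fibre protein of the tail and neck, rose by a log2 fold change of 3.49 (SE 0.16, edgeR adjusted p = 6.10e-22) with tails of 174 ± 8.19 nt in P/D and 177 ± 1.504 nt in RS. Pmfbp1, which binds SUN5 at the coupling apparatus, rose by 3.73 (SE 0.35, edgeR adjusted p = 2.41e-12) with tails of 169 ± 22.5 and 173 ± 5.61 nt. Odf1 had 31, 40 and 19 P/D reads, but Pmfbp1 only 2, 4 and 3, so little can be said of its P/D tail. Both rose in RS, as Sun5 and Spag4 did. Neither tail difference passed the test (limma adjusted p = 0.708 for Odf1 and 0.796 for Pmfbp1). Spata6, needed to assemble the neck, rose by 1.16 (SE 0.14) and its tail lengthened by 64.3 nt (SE 5.49, limma adjusted p = 0.00049). Cetn1, a centrin, fell by 0.42 (SE 0.13) on the log2 scale and its tail lengthened by 59.4 nt (SE 5.30, limma adjusted p = 0.000491).

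Partners of the members were listed under 15 gene symbols. Of these, 9 were tested for accumulation (5 higher, 2 lower) and 10 for tails (5 longer, 0 shorter). Over all transcripts tested 32.6% were higher, 30.8% lower and 54.2% longer. Spem2, the neighbour and relative of Spem1, rose by a log2 fold change of 3.61 (SE 0.34, edgeR adjusted p = 3.07e-12) and Cep290, a ciliary transition zone protein, by 2.99 (SE 0.46). Pcm1, the scaffold of centriolar satellites, and Ranbp17, an importin relative, were lower, with log2 fold changes of -0.91 (SE 0.33) and -0.82 (SE 0.25). The tails of Dnali1, a dynein light chain, and Ranbp17 lengthened by 68.3 nt (SE 6.56) and 46.9 nt (SE 9.68).

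Iqcg belongs to the nexin-dynein regulatory complex, of which 9 of 10 other genes were tested (2 higher, 1 lower, and 5 with longer tails), beside the same shares over all transcripts. Its subunit genes Fbxl13 and Ccdc65 rose by log2 fold changes of 2.67 (SE 0.28) and 0.61 (SE 0.14), and Drc3 fell by 0.84 (SE 0.21) on the log2 scale, beside the fall of 0.79 for Iqcg-202. Gas8 and Tcte1 gained 75.7 nt (SE 6.80) and 57.3 nt (SE 10.7) in tail length. Of 9 genes of the LINC complex and lamins, only Lmnb2, a nuclear lamin, had a transcript here. It rose by a log2 fold change of 2.48 (SE 0.42, edgeR adjusted p = 2.33e-06). Its tail difference was -5.86 nt (SE 8.25, limma adjusted p = 0.578), with only 2, 7 and 1 reads behind the P/D means.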

How the data were processed

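Direct RNA was read from 3 P/D and 3 RS samples, as labelled, each a pool from 3 mice. The authors basecalled, demultiplexed and aligned the reads with minimap2 to GENCODE transcripts of GRCm38 (the submitters' processing notes name minimap2 2.20-r1061), and estimated tails with Nanopolish. Deposited were the authors' raw counts of reads on each contig, not normalized, and, as another kind of value, each single read's tail in nt. Both tables held the same reads for all 12114 contigs. Only counts and tails were used, and the 597 repeat contigs were left out of the tests.

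Mean tails per transcript and sample were tested with limma 3.58.1 (10 or more reads in 2 samples of either cell type, and means from 2 samples of both), and counts with edgeR 4.0.16 (TMM, filterByExpr, quasi-likelihood test) in R 4.3.3, while DESeq2 1.42.0 was an alternative. P-values were adjusted by Benjamini-Hochberg over all transcripts tested, with a threshold of 0.05. Both tests were tested on simulated data. Single values per sample had exact permutation tests. Tail classes include their lower bound. CPM values use TMM library sizes, and log2 fold changes are from the edgeR fit. Member reads were on 1 contig each. Counting error is largest for P/D means of genes with few reads. Scripts ran in Python 3.11.15.

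The members and all gene lists were chosen with earlier results of these data known. Every member transcript past a filter is named. Of each other list except the cell type markers, the genes named are, among those past the threshold, the 2 with the highest and 2 with the lowest log2 fold change and the 2 with the largest rise and 2 with the largest fall in tail. A gene that this rule names and a sequence are not reported here.

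P/D and RS samples share replicate numbers, and according to the Reporting Summary the germ cell types were taken from the same animals, so the numbers were taken as pairs in the blocked fits. No label states that pools of the same number came from the same mice. Over 1827 transcripts, deviations of same-numbered samples from their group means correlated by 0.03, 0.24 and 0.07 for accumulation and by -0.01, 0.08 and 0.02 for tails. Those of differently numbered samples ran from -0.17 to 0.12 for accumulation and from -0.08 to 0.06 for tails.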

Additional observations from a re-analysis of the deposited data

How the results depend on the processing

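The test on tails with the replicate number as a block (replicate block) changed the call of Sun3-201 alone (difference 31.4 nt, adjusted p = 0.0878) and no call on member accumulation. Of the settings tried for single transcripts, 152 tail differences and 116 log2 fold changes kept direction and side of the threshold, and 13 tail differences fell below it, all of Sun3-201, Hook1-201 or Meig1-201. Differences close to 0 changed sign. Spem1-201 was at -3.06 nt with medians and -1.55 nt without P/D replicate 2, Sun5-201 at -0.0585 nt with tails of 10 to 300 nt and -6.28 nt without P/D replicate 2, Spag4-201 at -7.57 nt without P/D replicate 3, Meig1-205 at a log2 fold change of -0.12 without P/D replicate 3 and Meig1 at 0.00646 at gene level. Without single replicates, the values ran from -7.57 to 39.2 nt for Spag4-201, from -1.55 to 5.69 nt for Spem1-201, from -6.28 to 20.5 nt for Sun5-201, from 5.58 to 77.3 nt for Sun3-202 and from -0.12 to 0.26 (log2) for Meig1-205. Meig1-201 gave 27.8 nt with medians (adjusted p = 0.0873). Members with shorter tails numbered 0 with medians, with at least 20 reads in both cell types, with tails of 10 to 300 nt and at gene level. At gene level 4 member genes of 8 were longer, beside 2965 of all 5407 tested at that level. With at least 20 reads, 1882 of 2235 transcripts were longer and 59 shorter, and without single replicates the shorter ones numbered between 66 and 141. Members higher in RS numbered 10 of 18 by DESeq2, beside 2563 of 11022 transcripts. With no filter they numbered 10 of 18, beside 3404 of 11467 transcripts. The difference in the share of tails of 120 to 210 nt, 53.4 percentage points, was 36.0 percentage points for 120 to 180 nt, 23.4 with genes weighted equally and, chosen after seeing the data, 43.3 without Meig1. Depth limits the P/D tails of Spag4, Sun5, Spem1, Sun3 and Hook1, with 16 to 49 reads in all, and the cause of these changes was not tested.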
